A study of Saccharomyces cerevisiae
Saccharomyces paradoxus with 24 samples.

Results

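Of 1118 windows called as Rap1 peaks in the genome of the budding yeast Saccharomyces cerevisiae, 295 carried a strong signal before depletion, and 88 of these lost nearly all of it within 60 min of Rap1 depletion. The 88 windows, 7.87% of all, were chosen from the measurements themselves: a mean signal of at least 300 at 0 min and, as the mean of the ratios in 2 replicates, under 20% of that signal left at 60 min. The values at 0 and 60 min are therefore given below as a description, without a test. The other 207 strong windows, which kept 20% or more, are the group they are set against. Among windows of any strength, 620 of 1118 (55.5%) had under 20% left, so that emptying was common over the table and less common among strong windows. Of all windows, 239 (21.4%) lay over a tRNA gene, against 1 of the 88. The paper left out peaks over tRNA genes or Ty elements, which had short apparent residence times. Among its reasons was that highly transcribed loci are often artefacts. The shares of all windows given below include these windows.

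Rap1 is an essential DNA-binding protein that activates many genes, most ribosomal protein genes and genes of glycolysis among them, and that also binds telomere repeats and the silencers of the silent mating-type loci, where it takes part in recruiting the Sir proteins. At the silent locus HML, it binds both silencers, HML-E and HML-I, and the promoter between the α2 and α1 genes, here called HML-p. In the anchor-away method, rapamycin joins an FRB tag on the protein of interest to an FKBP12 tag on an abundant ribosomal protein, and the ribosomal protein carries its partner out of the nucleus as it is exported.

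Rap1 carried FRB and 2 copies of the V5 epitope after residue 134, and the anchor was Rpl13A fused to 2 copies of FKBP12. All strains also carried the TOR1(S1972I) allele and a deletion of FPR1, which make growth insensitive to rapamycin, a deletion of BAR1, a deletion of HMR, and an HML locus rewritten with single-base changes so that its reads could be told from those of MAT. A pair of strain isolates of this genotype, 1 for each of 2 replicates, was treated with 7.5 µM rapamycin for 5, 10, 15, 20, 30, 45 or 60 min. The 0 min cells were given the solvent DMSO for 60 min. Before immunoprecipitation with a V5 antibody, cells of Saccharomyces paradoxus with V5-tagged Rap1, not exposed to rapamycin, were added at 5% of the cells by optical density, and the reads in each 300 bp window were divided by those of S. paradoxus and multiplied by 1000000 to give its signal. Each of the 16 ChIP libraries contained between 4397759 and 9219038 reads of the added species. At the 88 windows, the 0 min libraries held 1728 to 46328 reads, and the lowest count in any library was 50. Each replicate is 1 isolate. The paper staggered the rapamycin additions so that cells of every time reached the same optical density together. The numbers below cover the spread between these 2 isolates. In such bulk samples, fewer cells with Rap1 at a window and less Rap1 per cell cannot be told apart.

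The window that emptied furthest lay upstream of UBP2, which encodes a ubiquitin-specific protease (chromosome XV, 558692 to 558992, 200 bp from the summit of the window to the start codon). Its signal was 472 and 567 in replicates 1 and 2 at 0 min, 437 and 514 at 5 min, 185 and 216 at 10 min, 48.4 and 51.6 at 15 min, and 27.0 and 29.5 at 20 min. The signal was then 24.1 and 32.4 at 30 min, 22.0 and 23.6 at 45 min, and 13.2 and 23.7 at 60 min. From 20 to 60 min it fell further in replicate 1 than in replicate 2. Most of the loss thus fell between 5 and 15 min in both replicates, and the 60 min level was 3.49% of the starting one. From 5 to 15 min the fitted log2 change was −3.22 (SE 0.27, limma adjusted p = 2.79e-29), and from 20 to 30 min it was −0.01 (adjusted p = 0.982).

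**Figure D1:**
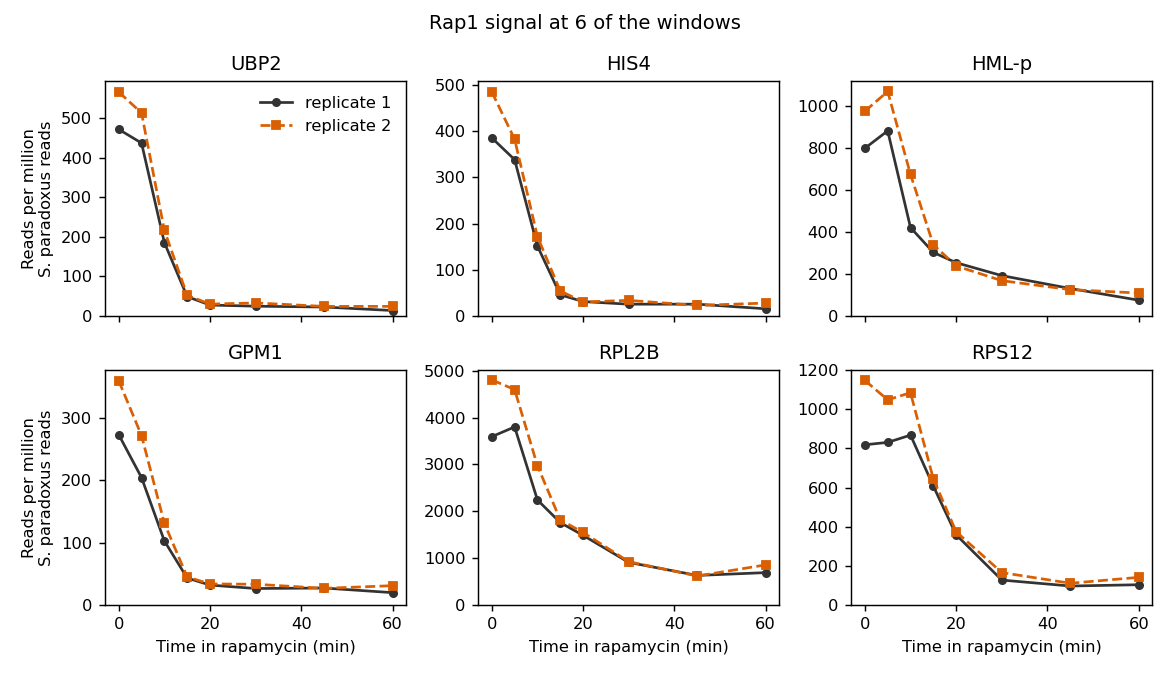
Rap1 signal (reads in the window per 1000000 S. paradoxus reads, linear axis from 0) against time in rapamycin (min) at 6 of the 88 windows, with replicate 1 as circles on a solid line and replicate 2 as squares on a dashed line. UBP2 fell from 472 and 567 at 0 min to 48.4 and 51.6 by 15 min, whereas RPS12 still stood at 607 and 644 at 15 min and fell later.

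The next 9 windows by the share left were as follows. The shared upstream region of LCL2 and CDC45, the latter a subunit of the replicative helicase, went from 739 and 893 at 0 min to 27.2 and 37.8 at 60 min. SHE9, which encodes a mitochondrial inner membrane protein, went from 1026 and 1182 to 38.8 and 54.9. MRE11, a nuclease subunit of the complex that processes DNA double-strand breaks, went from 292 and 351 to 12.3 and 17.1, and was the window whose signal fell most by 10 min, to 74.2 and 84.5 from 253 and 282 at 5 min. In all 3, both replicates were low at 60 min. The choice of windows by their 60 min share largely set this in advance. HIS4, an enzyme of histidine synthesis and a long-studied Rap1 target, went from 386 and 486 at 0 min to 45.5 and 53.8 at 15 min and 15.1 and 27.4 at 60 min. TEX1, a component of an mRNA export complex, went from 260 and 341 to 11.2 and 20.9. The remaining 4 of the 10 were an intergenic window at XVI:575155 between HAA1 and SUT2, one at XIII:433526 between YMR082C and ADH3, one at XI:642709 near FLO10, and one inside the overlapping reading frames YOR343W-B and YOR343W-A.

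Over the 88 windows, the median share of the 0 min signal left was 94.2% at 5 min, 60.9% at 10 min, 30.1% at 15 min, 19.9% at 20 min, 13.5% at 30 min, 11.2% at 45 min and 10.2% at 60 min. The 2 replicates gave medians of 63.1% and 58.8% at 10 min and of 32.3% and 27.9% at 15 min. At 60 min, 41 windows had under 10% and 7 under 5% left, and 83 of the 88 were under 20% in each replicate taken alone. The median window of the other 207 kept 83.2% at 10 min, 61.0% at 15 min, 56.0% at 20 min and 42.7% at 60 min, so that both groups lost signal in the first 15 min, and after that the median of the 88 fell from 30.1% to 13.5% by 30 min where that of the other windows went from 61.0% to 45.1%. At 60 min the median signal was 57.3 at the 88 windows and 400 at the other strong windows, against 19.5 over all windows.

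**Figure D2:**
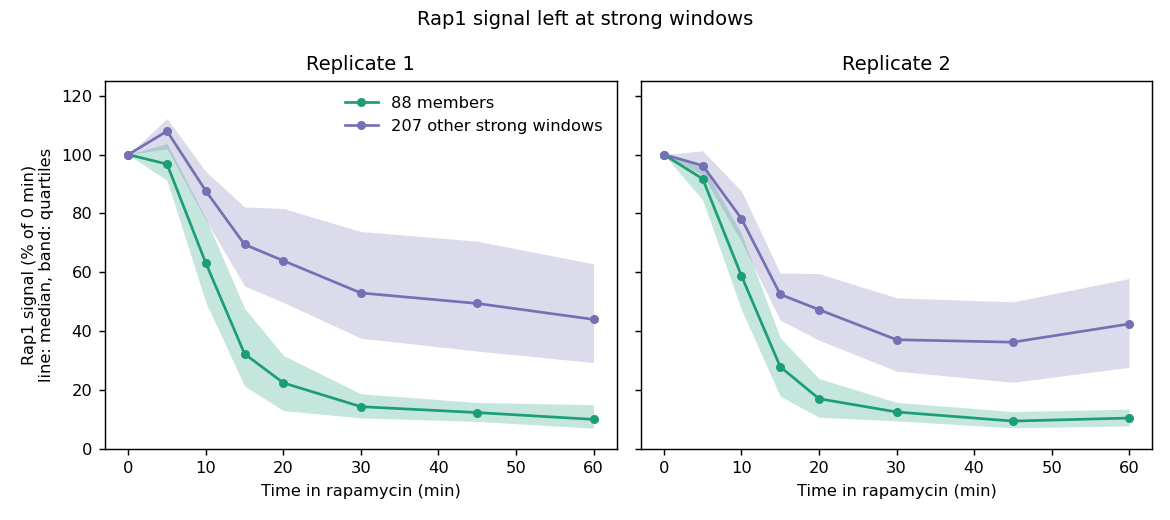
Rap1 signal as a percentage of the 0 min signal of the same replicate (y axis) against time in rapamycin (x axis, min), in 1 panel per replicate. Lines are medians over the 88 windows (green) and the 207 other strong windows (purple), and bands span the quartiles. By 15 min the medians of the 88 were 32.3% and 27.9%, below the other strong windows in both replicates, and the 60 min values are those by which the windows were chosen.

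The loss was tested among the libraries that took no part in choosing the windows, those at 5 to 45 min, with 1 limma fit over all 1118 windows and p-values adjusted over all of them. At 10 min, 52 of the 88 windows were lower than at 5 min, where 73.3% of all windows were, and 30 of the other 207. At 15 min, 87 of the 88 were lower (93.5% of all windows), and from 20 min on each of the 88 was, beside 94.2% of all windows at 20 min, 95% at 30 min and 95.3% at 45 min. Of the other strong windows, 145 of 207 were lower at 15 min and 169 at 45 min. The median log2 change from 5 min at the 88 windows was −0.65 at 10 min, −1.67 at 15 min, −2.30 at 20 min, −2.79 at 30 min and −3.11 at 45 min. Over all windows it was −0.92 at 10 min and −1.79 at 15 min, and over the other strong windows −0.29 and −0.76. The 88 were thus close to the whole table in the share of windows lower by 15 min, and the 823 weaker windows stood at a median log2 change of −1.98 by then. With 1 library of each of the 2 times left out, 28 or 32 of the 88 passed at 10 min, without replicate 1 or 2 respectively, where 58.9% and 60.3% of all windows did.

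Between neighbouring times, the step from 10 to 15 min held the most calls, 85 of the 88 windows against 80.9% of all windows, and 64 of the other 207. Without replicate 2 at both times, 35 of the 88 and 7.78% of all windows passed, and without replicate 1, 71 of the 88 and 59.2% of all windows. From 15 to 20 min, limma called none of the 88 and none of all windows lower (0%), although 54 of the 88 and 108 of all windows were lower at an unadjusted p under 0.05. With the strain isolate as a replicate block, 38 of the 88 were lower in that step, beside 4.65% of all windows. With only the libraries of the 2 times fitted, 29.3% of all windows were lower, and the count among the 88 was not taken. The median log2 change in that step was −0.59 at the 88, −0.11 at the other strong windows and −0.23 over all windows. The lack of calls is therefore not a lack of a fall. From 20 to 30 min, a longer interval than those before it, 15 of the 88 were lower, against 2.24% of all windows and 10 of the other 207. The replicate block gave 27 in that step, against 6.44% of all windows, and leaving out either replicate gave 0. From 30 to 45 min none passed with or without the block, for the 88 or for all windows (0%), and 6 of the 88 did at an unadjusted p under 0.05.

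The time at which the signal crossed 50% of its 5 min level, found by interpolation on the log2 scale, had a median of 11.7 min (11.8 and 11.7 min in replicates 1 and 2) and ranged from 7.85 to 21.6 min. The median was 10.3 min over all windows and 9.50 min over the weaker windows, so the median window of the 88 crossed later than these. Before 10 min, 16 windows crossed, 58 from 10 to 15 min, 13 from 15 to 20 min and 1 later. Of the other strong windows, 2 crossed before 10 min, 44 from 10 to 15 min and 78 later, while 83 had not crossed by 45 min in at least 1 replicate. An exponential decay to a free plateau gave an apparent residence time with a median of 13.6 min at the 88 windows (14.7 and 12.8 min by replicate). That fit used every time, 0 and 60 min included, and its values are a description.

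Before the fall, 54 of the 88 windows were already below their 0 min signal at 5 min in both replicates and 9 were above it in both. These counts were not taken over all windows. The median share left at 5 min was 94.2% at the 88, 92.6% over all windows and 102% at the other strong windows. The 0 min signal was among the values that chose the windows. Fewer than 20% of the 5 min signal was left in both replicates at 15 windows by 15 min, 36 by 20 min, 66 by 30 min and 83 by 45 min, whereas 6 of the other 207 reached that level by 45 min. The counts under 20% were not taken over all windows either. Over all windows the median was 28.2% of the 5 min signal at 15 min, 23.3% at 20 min, 23.8% at 30 min and 22.7% at 45 min. At the 88 the medians were 31.3%, 20.2%, 14.3% and 11.4%. The median log2 change from 5 min differed between the 88 and the other strong windows by −0.33 in each replicate at 10 min, by −0.997 and −0.890 at 15 min, by −1.42 and −1.45 at 20 min, and by −1.87 and −1.86 at 45 min. The difference between the groups was far larger than the distance between the replicates from 10 min on. The groups were split by the share left at 60 min in these same isolates. A gap at the times before is therefore in part set by that split. No test was run over windows, which are not replicates, and the low level at 45 min is close in time to the 60 min value that chose the windows.

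The 88 windows differed from the other strong windows in what lay downstream of them. Ribosomal protein (RP) genes, the largest known class of Rap1 targets, started within 500 bp of the summit at 17 of the 88 windows (19.3%), against 83 of the other 207 (40.1%) and 10.3% of all windows. With a distance of 300 bp, 11 of the 88 had one. A gene in none of the lists examined started within 500 bp at 35 of the 88 (39.8%). The same held at 42 of the other 207 (20.3%) and 26.4% of all windows. Any open reading frame started within 300 bp at 44 of the 88 (50.0%), 73 of the other 207 (35.3%) and 25.1% of all windows. Within 500 bp the strong groups were close, at 62 (70.5%) and 137 (66.2%), against 41.1% of all windows. Tandem genes flanked 45 of the 88 (51.1%), divergent genes 33 (37.5%) and convergent genes 3 (3.41%), and 7 (8.0%) lay inside a reading frame. In the other 207, tandem intergenic windows numbered 74 (35.7%) and divergent ones 87 (42.0%). Over all windows the shares were 32.0% tandem, 25.4% divergent, 7.60% convergent and 31.8% inside a reading frame.

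Windows within 15 kb of a chromosome end numbered 5 of the 88 (5.68%) and 41 of the other 207 (19.8%), where they made up 8.68% of all windows. Windows in the rDNA region numbered 1 of the 88 (1.14%) and 19 of the other 207 (9.18%), against 1.88% of all windows. In both cases the 88 were closer to the whole table than the other strong windows were. The 5 of the 88 near an end kept a median of 11.0% of their 0 min signal. They include HML-E, HML-p and HML-I, the windows of the silent locus described below. A window at III:120, one of the strongest of the other 207, went from 13679 and 18945 at 0 min to 11375 and 14882 at 60 min. The members lay on all 16 chromosomes, with 15 on XII and 9 each on IV and XV. They also had less signal at the start, with a median of 530 at 0 min against 883 in the other strong windows. Of the strong windows with a 0 min signal of 300 to 600, 52 of 119 were among the 88, but of those over 1200, 9 of 90 were.

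The RP windows among the 88 emptied later than the rest. At 10 min, 4 of the 17 RP windows and 48 of the other 71 were lower than at 5 min, where 73.3% of all windows were. At 15 min, the RP windows stood at a median of 49.2% of their 5 min signal, where the 83 other strong RP windows stood at 59.7%, but at 45 min they stood at 11.5%. The median log2 change of the 17 minus that of the 71 was 0.89 and 0.79 in replicates 1 and 2 at 15 min. It was 0.83 and 0.97 at 20 min, 0.25 and 0.11 at 30 min, and 0.00 and 0.05 at 45 min. Both sets were chosen for a low share left at 60 min, so a small late difference is in part set by that choice. At 60 min the median share of the 0 min signal left was 13.0% for the 17 and 9.34% for the 71. From 20 to 30 min, 9 of the 17 RP windows were lower, against 6 of the 71, 8 of the 83 other strong RP windows and 2.24% of all windows, and with either replicate left out none passed in this step, over the 88 or over all windows. Their signal crossed 50% of the 5 min level at a median of 14.9 min, and none of the 17 did so before 10 min. Relative to the 83 other strong RP windows, the 17 differed in median log2 change by −0.28 in each replicate at 15 min, −0.75 and −0.74 at 20 min and −1.43 and −1.30 at 30 min.

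**Figure D3:**
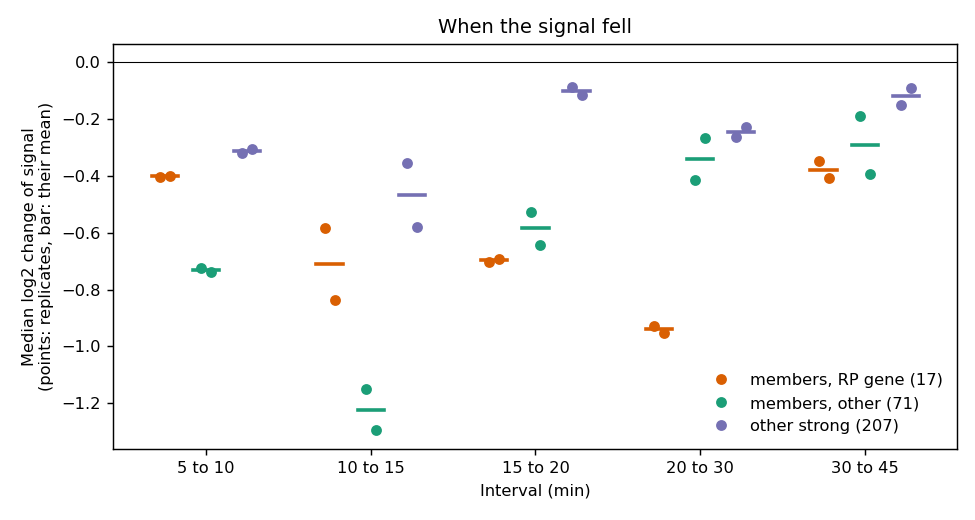
Median log2 change of the signal (y axis) over each interval between neighbouring times (x axis, min), for the 17 windows among the 88 with an RP gene (orange), the other 71 (green) and the 207 other strong windows (purple). Points are the 2 replicates and bars their mean. The 71 fell most from 10 to 15 min, by 1.15 and 1.30 on the log2 scale, and the 17 fell by 0.93 and 0.95 from 20 to 30 min, an interval of 10 min where the earlier ones last 5 min.

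RPS12, a protein of the small ribosomal subunit, was the RP window with the highest level at 10 min relative to 5 min. Its signal was 819 and 1148 at 0 min, 831 and 1049 at 5 min, 868 and 1085 at 10 min, 607 and 644 at 15 min, 358 and 374 at 20 min, 126 and 165 at 30 min, and 96.1 and 110 at 45 min. At 10 min it was not below its 5 min level in either replicate, and it was lower at each later time up to 45 min. The log2 change was −0.58 from 5 to 15 min (limma adjusted p = 0.0367, lost when either replicate was left out) and −1.34 from 20 to 30 min (adjusted p = 6.58e-04). At 60 min RPS12 was at 103 and 140, or 12.4% of the starting level.

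RPL2B, of the large subunit, had the highest signal of the RP windows, 3593 and 4806 at 0 min. It was at 2241 and 2973 at 10 min, 1756 and 1815 at 15 min, 906 and 922 at 30 min and 627 and 615 at 45 min, and then at 688 and 852 at 60 min. RPL12A, also of the large subunit, went from 1491 and 2103 at 0 min to 823 and 877 at 15 min and 265 and 295 at 30 min, and RPS1A, of the small subunit, from 1411 and 2010 to 820 and 836 and then 229 and 263. The 20 to 30 min step passed the test at RPL12A (log2 change −1.08, adjusted p = 0.0104) and RPS1A (−1.10, adjusted p = 0.00834), and at RPL2B it was −0.73 (adjusted p = 0.182). RPS30A, with 1420 and 1910 at 0 min, was at 559 and 558 by 15 min, and RPS31, which encodes ubiquitin fused to a small subunit protein, went from 1042 and 1450 to 396 and 417.

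The slowest windows without an RP gene within 500 bp were looked at after their values were seen. Of the 88, 14 crossed 50% of their 5 min signal at 15 min or later, and 8 of these were RP windows. Of the other 6, the next reading frame downstream of the summit was RPS26B at V:423137 (665 bp away), RPS25A at VII:534862 (554 bp) and RPS25B at XII:796490 (741 bp), and the window at VII:788367 lay between RPL24B and GPC1. The remaining 2 were upstream of RMD6 and, at XV:168056, of ATG19. An RP gene thus flanked 4 of these 6 windows, against 1 of the remaining 65 windows of the set without an RP gene within 500 bp and 59 of 1003 such windows in the whole table (5.88%), a description of windows picked for their values. The window near RPS26B, the slowest of the 88, was at 397 and 522 at 5 min, 492 and 591 at 10 min, 348 and 384 at 15 min, 245 and 275 at 20 min and 102 and 137 at 30 min. It was higher at 10 min than at 5 min in both replicates, by an amount that did not pass the test (log2 change 0.24, adjusted p = 0.405), and it was the single window of the 88 that was not called lower at 15 min (−0.32, adjusted p = 0.249).

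**Figure D4:**
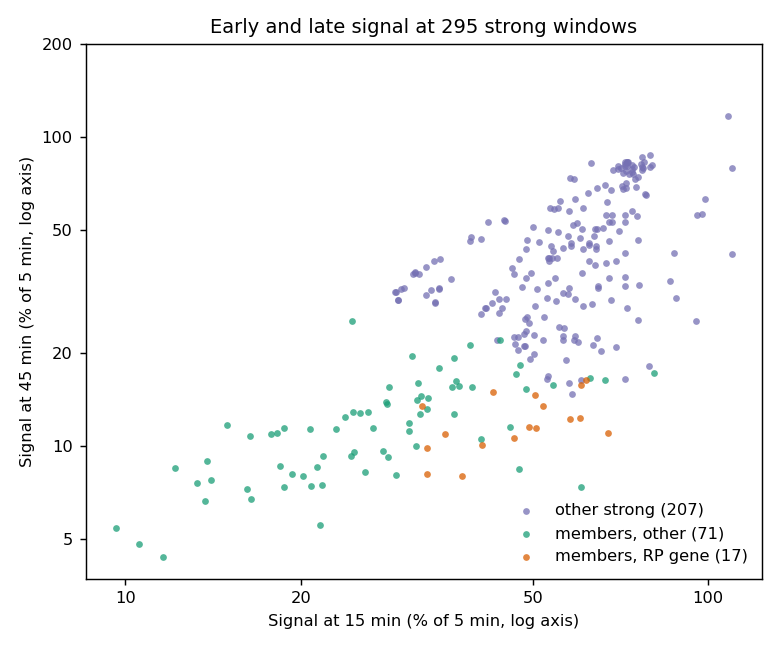
Signal at 45 min against signal at 15 min, each as a percentage of the 5 min signal and as the mean of 2 replicates (both axes log), at the 295 strong windows: the 17 RP windows among the 88 (orange), the other 71 (green) and the 207 other strong windows (purple). The RP windows stand at a median of 49.2% at 15 min, among the other strong windows on the x axis, and at 11.5% at 45 min, below nearly all of them on the y axis.

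Members of the other gene lists were few. Glycolysis and fermentation had 1 (1.14%), against 1 of the other strong windows (0.483%) and 5 of all windows (0.447%). Ubiquitin and proteasome had 2 (2.27%), 1 (0.483%) and 5 (0.447%), and chaperones and heat shock 2 (2.27%), 1 (0.483%) and 7 (0.626%). At 15 min the members of these lists stood at medians of 18.8%, 14.2% and 24.7% of their 5 min signal. The median was 28.2% over all windows and 24.4% over the weaker windows, so such a fall was common. GPM1, the glycolytic phosphoglycerate mutase, went from 273 and 360 at 0 min to 204 and 272 at 5 min, 103 and 131 at 10 min and 43.0 and 44.8 at 15 min. UBI4, the polyubiquitin gene, went from 428 and 520 at 5 min to 77.4 and 90.6 at 15 min, and was with UBP2 on the ubiquitin and proteasome list. The region between HSF1, the heat shock transcription factor, and MPS2, of the spindle pole body, went from 327 and 391 at 5 min to 80.3 and 74.6 at 15 min. In these 3 windows the signal fell by more than 2 log2 units from 5 to 15 min, with changes of −2.40, −2.48 and −2.19 and adjusted p of 1.44e-17, 1.75e-18 and 3.38e-15. PIM1, the mitochondrial Lon protease, fell less by 10 min, from 588 and 732 at 5 min to 453 and 524, and then to 170 and 193 at 15 min.

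Windows upstream of ribosome biogenesis and RNA polymerase genes numbered 2 of the 88 (2.27%), 4 of the other 207 (1.93%) and 16 of all windows (1.43%). UTP4, a processome component that shares its upstream region with the condensin gene YCG1, was at 714 and 860 at 5 min and 160 and 166 at 15 min. RPA34, a subunit of RNA polymerase I, was at 381 and 450 and then at 142 and 160, a smaller log2 change (−1.45 against −2.26). PRO1, the first enzyme of proline synthesis, divergent from the RNA cleavage factor gene CFT1, went from 651 and 780 to 220 and 227. No gene of the translation factor list was next to any of the 88. Such a gene was next to 3 of the other 207 (1.45%) and 7 of all windows (0.626%). With so few windows, the absence from the 88 shows no difference.

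All 3 Rap1 windows of HML were among the 88. The sequence around the single match to the Rap1 core motif in the promoter of the rewritten HML is shown because no other match lay in that promoter. It is read from the synthetic fragment of chromosome III that the study designed. The capitals mark the reverse complement of ACCCNNACA, which matched once on this strand and not at all on the other over the 399 bases searched. They include the 2 bases that the study's repair template for a mutant binding site alters.
HML-p: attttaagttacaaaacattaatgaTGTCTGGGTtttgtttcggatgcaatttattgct

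At HML-p (chromosome III, 12995 to 13295) the signal was 798 and 974 at 0 min and 881 and 1068 at 5 min, then 420 and 673 at 10 min, 302 and 338 at 15 min, 253 and 237 at 20 min, 191 and 167 at 30 min, 130 and 124 at 45 min, and 73.9 and 108 at 60 min. HML-I (14505 to 14805) went from 607 and 893 to 751 and 937 at 5 min, 338 and 557 at 10 min, 248 and 284 at 15 min and 62.9 and 106 at 60 min. HML-E (11089 to 11389) went from 597 and 802 to 729 and 934 at 5 min, 310 and 606 at 10 min, 273 and 335 at 15 min, 152 and 167 at 45 min and 109 and 170 at 60 min. All 3 were above their 0 min signal at 5 min in both replicates, and at 10 min all 3 were lower in replicate 1 than in replicate 2 relative to 5 min, at 47.7% and 63.0%, 45.0% and 59.5%, and 42.5% and 64.9%. From 5 to 15 min the log2 changes were −1.60 at HML-p, −1.66 at HML-I and −1.44 at HML-E, with adjusted p of 6.96e-09, 2.05e-09 and 1.63e-07. HML-E kept the most at 60 min, 19.7% of its 0 min signal, just under the limit of the set, against 10.2% at HML-p and 11.1% at HML-I.

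The highest signal of the 88 lay in the rDNA, at XII:460414, with 5523 and 9144 at 0 min. The input of the same cells held 30494 and 72251 there, so that the ChIP signal was 0.154 of the input in this repeated region, against a median of 0.444 over all windows. Its signal fell to 1256 and 1269 at 20 min and stood at 1925 and 1928 at 30 min, a return seen in both replicates. A further 2 of the 88, at V:491070 and inside YOR343W-B/YOR343W-A, had a ratio of ChIP to input signal below 1 at 0 min (0.846 and 0.731). Both signals are scaled to S. paradoxus reads, so that a ratio of 1 is no neutral value. The median ChIP signal over input at 0 min was 1.83 at the 88 windows and 2.29 at the other strong windows. Without the rDNA window and the window over a tRNA gene, 50 were lower at 10 min and 85 at 15 min.

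The limits of the set passed through a continuous range. Just inside the limit on the share left were HML-E (19.7%), VII:788367 (19.9%) and RPL16A, a large subunit gene (20.0%). Just outside it were TSR1, a factor in small subunit maturation (20.1%), RPL21A, of the large subunit (20.2%), and XII:455221 in the rDNA (20.5%). Just inside the limit on signal were TEX1 (300.5), XI:642709 (303) and IV:413239 (305), and just outside it SGM1 (297), STE3, the a-factor receptor gene (292), and ORC2, of the origin recognition complex (290.0). At the other end, away from chromosome ends, IXR1, which encodes an HMG-domain DNA-binding protein, went from 237 and 367 at 0 min to 324 and 434 at 60 min, and GPD1, an enzyme of glycerol synthesis, from 544 and 762 to 552 and 659. Their means were 128% and 94.0% of the 0 min signal, in libraries where UBP2 fell to 3.49%.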

How the data were processed

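Rap1-V5 was measured by ChIP-seq in 16 libraries, 2 strain isolates at 8 times, with 0 min inputs for both (800923 and 388272 S. paradoxus reads). The authors used Bowtie2 to align reads to the S. paradoxus genome joined with a modified SacCer3, called peaks on the 0 min ChIP, took windows of 150 bp on either side of each summit, and deposited the signal of each window, its reads per 1000000 S. paradoxus reads. They also deposited counts of S. paradoxus reads per library, with which the signals multiplied back to whole reads within 3.93e-10. Intervals are not given because reads are not independent molecules. A further 14 input columns, which matched no sample label, were not used, and neither was 1 line that is no window.

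The 88 windows, the gene lists and the tests were chosen with earlier results of these data known. Signals were tested as log2(signal + 1), so that fold changes of low values are understated, in limma 3.58.1 (R 4.3.3) with time as a factor over all 16 ChIP libraries and p-values adjusted by Benjamini and Hochberg over 1118 windows. Limma estimated 1 common spread for all windows. Calls are at an adjusted p under 0.05. Isolate numbers pair the libraries: residuals of same-numbered libraries correlated at −0.208 to 0.408 over pairs of times (median 0.168). On simulated data for 5 against 15 min with 1118 windows, 42 of 50 windows with a fall of 1 log2 unit were called, 12 of 50 with 0.5, and 0 of 918 unchanged ones. The simulated noise was independent between windows and libraries, with no shift shared by a library and most windows unchanged. It therefore cannot tell how an error of the spike-in scaling would affect the calls. Gene starts are RefSeq, assembly R64, and distances to chromosome ends are from the outermost window or gene. Named windows were the 10 with least left, the 10 with the highest 0 min signal, the 5 lowest and highest at 10 min relative to 5 min, up to 3 of each gene list, the HML windows, HIS4, UBP2, neighbours of the limits, and the 5 strongest and 5 best kept other windows. Tables were handled in Python 3.11.15 with numpy 2.4.6, pandas 2.3.3 and matplotlib 3.10.9. Alternatives covered the pseudocount, scaling, filter, replicates and limits.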

Additional observations from a re-analysis of the deposited data

How the results depend on the processing

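The spike-in scaling decided most levels. With each library scaled to its own total over all windows instead, which removes a fall shared by all windows, the median log2 change of all windows from 5 to 15 min was −0.76 in place of −1.79. The set then held 24 windows in place of 88. Of the 88, 31 were lower at 10 than at 5 min (61.8% of all windows), 54 at 15 than at 10 min (31.7%), 27 at 20 than at 15 min (3.49%), 53 at 30 than at 20 min (16.4%) and 1 at 45 than at 30 min (0.0894%). The median share left became 83.8% at 10 min, 61.9% at 15 min, 45.1% at 20 min, 29.8% at 30 min and 27.1% at 45 min, and the median time to 50% of the 5 min signal 19.1 min. That scaling moves every window by nearly the same log2 amount, so the windows with the smallest fall change sign by its construction: from 5 to 15 min, 132 of all windows were called higher, and the fitted change was positive at 15 of the 88, namely V:423137 (0.73), RPS12 (0.47), XV:168056 (0.45), VII:534862 (0.38), RPL26A (0.35), NTC20/RPS9B (0.32), XII:796490 (0.31), RPL41A (0.31), RPS27A (0.26), VII:788367 (0.16), RPL43B (0.10), RPS1A (0.059), RPL16A (0.058), RPL8B (0.020) and RMD6 (0.006).

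Leaving out 1 replicate gave 28 to 32 lower windows from 5 to 10 min, 35 to 71 from 10 to 15 min and 0 from 20 to 30 min. Fixing the plateau at 0 moved the median residence time to 15.6 min, and a pseudocount of 5 gave 3 lower windows from 15 to 20 min. The replicate block gave 38 in that step and 27 from 20 to 30 min, and moved no other count of the 88 by 1.5 times (63 against 52 at 10 min). Counting RP genes within 300 bp, chosen after seeing the data, left 11 of 17. Other limits gave 69 to 127 windows. Sequence features near the summits were not run, since no genome sequence was used here. With 2 replicates a time, tests rest on the spread pooled over windows.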
